A study of Mus musculus with 9 samples.

Results

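The genes described here are 10 heat shock proteins, the cytosolic Hspa1a, Hspa1b, Hspa8, Hsph1, Dnajb1, Hsp90aa1 and Hsp90ab1 and the mitochondrial Hspa9, Hspd1 and Hspe1, taken by symbol from the 24420 symbols of the deposited count table. All 10 were also in the table of FPKM values and passed the filter on low counts, which left 12501 genes to test. The set was compared with a list of 34 genes, of which 33 were tested. It holds chaperones of the endoplasmic reticulum (ER), ER J-proteins and genes of ER-associated degradation (ERAD). The list also holds Xbp1 and Atf6, transcription factors of the unfolded protein response.

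Heat shock proteins are chaperones that bind unfolded or newly made proteins and pass them on for folding or breakdown. The cytosol, the mitochondria and the ER each hold their own relatives of the same families, Hsp70 with its J-protein and exchange-factor partners and Hsp90, and the cytosol and the mitochondria also have barrel-shaped chaperonins. Heat shock factors such as Hsf1 drive many of the cytosolic genes, the unfolded protein response drives the ER ones, and beta cells, which make large amounts of insulin in the ER, depend on the latter.

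The data are 9 total RNA libraries of pancreatic islets, all from female mice. The 4 knockout (KO) libraries were labelled Rip-cre; Ogt f/f, so that Cre, driven by an insulin promoter, acts on both floxed copies of Ogt, the enzyme that adds O-linked N-acetylglucosamine to nuclear, cytosolic and mitochondrial proteins. The 5 wild-type (WT) libraries carried no Cre and were labelled Ogt f/+ (WT replicates 1 and 3) or Ogt f/f (WT replicates 2, 4 and 5), so a floxed allele was shared by all groups, while Cre itself and the loss of Ogt cannot be told apart. Islets had been hand-picked and kept overnight in medium with 5 mM glucose at 37 °C, and ages were not given in the labels used here. WT replicates 1 to 3 and KO replicates 1 and 2 were sequenced in run 1, and WT replicates 4 and 5 and KO replicates 3 and 4 in a later run, named run 3 here. No label ties a library to an animal of its own, so a p-value here reflects library-to-library spread, which may be technical.

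Ogt was read first as a check of the labels. Run 1 gave 69.6, 54.1 and 83.0 CPM (counts-per-million on library sizes scaled by TMM) for WT replicates 1 to 3, and 23.7 and 24.1 for KO replicates 1 and 2. In run 3 it was 67.0 and 81.8 CPM in WT replicates 4 and 5 and 30.9 and 39.3 in KO replicates 3 and 4. Every KO library lay below every WT library, with a log2 fold change of −1.30 ± 0.14 (SE, edgeR quasi-likelihood test with Benjamini-Hochberg adjustment, adjusted p = 2.44e-05). Islets hold other cells than beta cells, and in such bulk RNA fewer cells of a type and less RNA per cell cannot be told apart. Islet hormone genes were high in all libraries (Ins2 at 28186 CPM or more, Gcg at 20179 or more). Depth was 3790984 to 4456205 counts per library in run 1 and 5141031 to 6064578 in run 3, and the ribosomal RNA precursor Rn45s took 9.64% to 28.6%. The 10 heat shock genes together took 0.519% to 0.896% of the counts of a library.

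The promoters show how the genes are arranged and which letters they share. RefSeq windows on GRCm38.p6, 250 bases before to 50 bases after a start, were found for 6 of the 10 genes. They were searched on both strands for the heat shock element (GAA, any 2 bases, TTC, any 2 bases, GAA), which 0.603% of all 32851 mouse windows of that length hold, and for the ER stress element (CCAAT, any 9 bases, CCACG), which 0.119% hold. The window of Hspe1 (chr1:55087898-55088197, plus strand) is shown because Hspd1 (chr1:55077835-55088243, minus strand) and Hspe1 (chr1:55088132-55091307, plus strand), which encode the barrel and the lid of the mitochondrial chaperonin, stand head to head and overlap by 112 bases in the GENCODE annotation of GRCm38. The window of Hsph1 (chr5:149636266-149636565, minus strand) is shown as the cytosolic gene with the element, and that of Hspa1a (chr17:34972107-34972406, minus strand) as the classical inducible gene. Those of Hspa5 (chr2:34771840-34772139, plus strand) and Hsp90b1 (chr10:86705395-86705694, minus strand) are shown as ER relatives with the ER stress element. Capitals mark the heat shock element in Hspe1 and Hsph1 and the ER stress element in Hspa5 and Hsp90b1.
Hspe1: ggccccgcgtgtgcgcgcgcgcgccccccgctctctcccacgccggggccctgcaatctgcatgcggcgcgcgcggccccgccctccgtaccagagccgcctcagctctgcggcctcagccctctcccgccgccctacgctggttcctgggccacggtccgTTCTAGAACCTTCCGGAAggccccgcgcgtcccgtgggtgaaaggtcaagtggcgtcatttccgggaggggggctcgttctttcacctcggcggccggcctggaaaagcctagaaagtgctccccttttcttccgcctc
Hsph1: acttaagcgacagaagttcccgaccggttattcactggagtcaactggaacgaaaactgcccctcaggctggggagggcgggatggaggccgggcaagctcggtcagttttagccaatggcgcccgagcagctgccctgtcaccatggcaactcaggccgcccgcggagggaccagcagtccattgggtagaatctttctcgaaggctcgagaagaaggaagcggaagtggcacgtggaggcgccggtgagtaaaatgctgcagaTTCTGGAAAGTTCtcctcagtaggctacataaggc
Hspa1a: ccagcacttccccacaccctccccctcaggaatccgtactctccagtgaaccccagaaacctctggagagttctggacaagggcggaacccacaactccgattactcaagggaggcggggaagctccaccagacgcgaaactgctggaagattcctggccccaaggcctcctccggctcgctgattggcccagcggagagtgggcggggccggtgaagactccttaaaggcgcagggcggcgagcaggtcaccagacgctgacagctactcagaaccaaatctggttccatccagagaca
Hspa5: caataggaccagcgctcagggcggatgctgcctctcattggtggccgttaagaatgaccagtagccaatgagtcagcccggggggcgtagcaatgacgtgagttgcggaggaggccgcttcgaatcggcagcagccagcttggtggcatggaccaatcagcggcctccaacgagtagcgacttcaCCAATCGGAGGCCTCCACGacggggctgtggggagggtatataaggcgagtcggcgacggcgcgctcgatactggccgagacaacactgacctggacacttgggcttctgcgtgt
Hsp90b1: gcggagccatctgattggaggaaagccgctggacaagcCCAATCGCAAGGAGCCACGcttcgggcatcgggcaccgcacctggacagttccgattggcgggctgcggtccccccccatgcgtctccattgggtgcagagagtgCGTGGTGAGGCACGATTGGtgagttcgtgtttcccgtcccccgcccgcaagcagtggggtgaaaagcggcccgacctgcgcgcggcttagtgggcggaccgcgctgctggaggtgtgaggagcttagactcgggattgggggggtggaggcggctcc

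The Hspe1 window holds 2 overlapping matches to the heat shock element, with first bases at −89 and −84 from the start. One of the windows of Hspd1, read on the other strand, covers the same letters, so the same stretch lies in both windows. Hsph1 has 1 match, just inside the transcribed part at base 15. No match lies in the windows of Hspa1a, Hspa1b or Dnajb1, which says only that these exact letters are absent there. The ER stress element stands once in Hspa5, at −65, and at 2 places in Hsp90b1, at −212 and −107. It is in none of the windows of the 6 heat shock genes. The window of the ER relative Dnajb11 (chr16:22857595-22857894, plus strand, not shown) does not hold it either. Neither TGATGNAA, the amino acid response element (3.97% of windows), nor TATAAA (13.6%) occurs in any of these windows. The windows of Hspa1a and Hspa1b are the same at 296 of 300 bases. A match describes letters and is not a measured binding site.

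Across the set, 2 of 10 genes fell in KO, 0 rose and 8 were not called at an adjusted p under 0.05. Over all 12501 tested genes 18.5% were called, 9.56% higher and 8.96% lower in KO, so the share of heat shock genes called is near that background. At an unadjusted p under 0.05, 1 of the 10 (Hsp90aa1) was higher and 3 were lower. The share of all tested genes at that threshold was not counted, so these numbers have no background to be read against. DESeq2 also called 0 of the 10 higher and limma-voom called 1. The median log2 fold change of the 10 was −0.15, against 0.02 over all tested genes, and it was −0.33 in run 1 and 0.05 in run 3. Both genes that fell are mitochondrial. KO libraries lay beyond all WT libraries within each run, on the same side in both, for 3 of the 10 genes (Hspa9, Hspd1 and Hspa1a, all lower), against 22.9% of all tested genes in either direction.

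**Figure D1:**
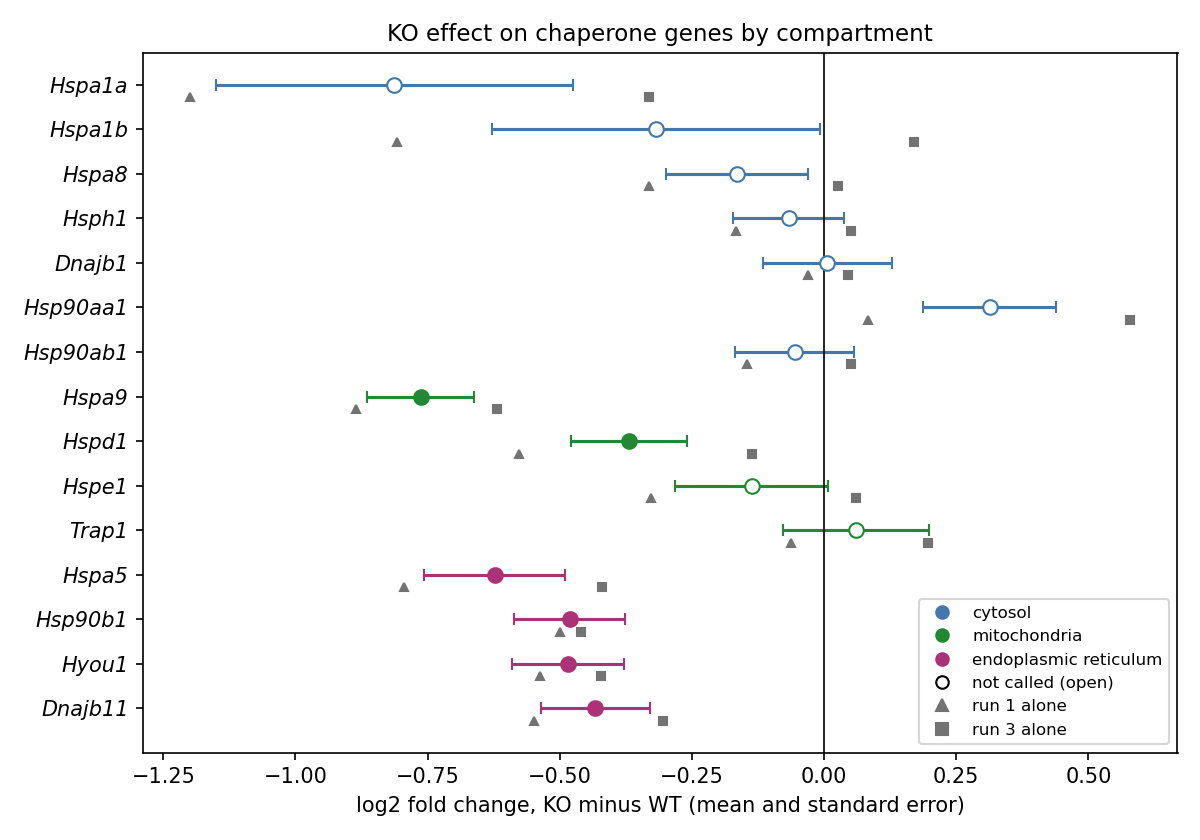
Log2 fold change of KO against WT for the 10 heat shock genes, Trap1 and the ER relatives, by compartment, with standard error bars. Filled points passed the test and open points did not, and grey marks give the effect in run 1 and run 3. The filled points are Hspa9 (−0.76), Hspd1 (−0.37) and the 4 ER genes, and the cytosolic points are open.

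Hspa9, on chromosome 18, encodes mortalin, the mitochondrial Hsp70 that pulls imported proteins into the matrix and folds them. Its level in run 1 was 1527, 1557 and 1175 CPM over WT replicates 1 to 3 and 804 and 732 CPM in KO replicates 1 and 2. In run 3 it was 908 and 838 CPM in WT replicates 4 and 5 and 520 and 618 CPM in KO replicates 3 and 4. The groups did not overlap within either run. Hspa9 fell by 0.76 on the log2 scale (SE 0.10, 95% interval −0.98 to −0.55, edgeR quasi-likelihood test, adjusted p = 0.000133), to 0.589 of the WT level. The effect was −0.89 in run 1 (adjusted p = 0.00113 by edgeR) and −0.62 in run 3 (adjusted p = 0.0266), where 4.86% and 2.13% of all tested genes were called lower. It stayed called in each of the 17 alternative settings and with any 1 library left out, between −0.90 and −0.63 and between −0.84 and −0.71.

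Hspd1 encodes Hsp60, the barrel of the mitochondrial chaperonin. In run 1 its level was 227, 225 and 171 CPM over WT replicates 1 to 3 and 149 and 129 CPM in KO replicates 1 and 2, while run 3 gave 208 and 191 CPM in WT replicates 4 and 5 and 173 and 190 CPM in KO replicates 3 and 4. KO lay under WT in both runs, in run 3 by a narrow margin. Hspd1 fell by 0.37 (SE 0.11, edgeR adjusted p = 0.0280), with −0.58 in run 1 and −0.14 in run 3, and the difference between the runs, 0.44 ± 0.19, was not called (edgeR adjusted p = 0.811). The call rests on single libraries: it was lost without WT replicate 1 (edgeR adjusted p = 0.0605), WT replicate 2 (0.0589), KO replicate 1 (0.0787), KO replicate 2 (0.113) or KO replicate 3 (0.0558). With f/f controls only, Hspd1 stood at −0.36 (edgeR adjusted p = 0.0513), and with the level of acinar genes as a covariate at −0.27 (edgeR adjusted p = 0.173).

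Hspe1 encodes Hsp10, the lid of the same chaperonin, and shares its promoter region with Hspd1. It was at 59.8, 48.6 and 44.3 CPM across WT replicates 1 to 3, 49.4 and 31.9 in KO replicates 1 and 2, 53.5 and 49.7 in WT replicates 4 and 5, and 45.9 and 61.5 in KO replicates 3 and 4. The groups overlapped in both runs, and KO replicates 2 and 4 held the lowest and the highest value. The difference was −0.14 ± 0.14 (95% interval −0.44 to 0.17, edgeR adjusted p = 0.555). The log2 ratio of Hspd1 to Hspe1 was 1.92 to 2.2 in the 5 WT libraries and 1.58, 2.01, 1.91 and 1.62 in KO replicates 1 to 4. KO replicates 1 and 4 lay under the WT range and KO replicate 2 within it. KO replicate 3 lay at its lower edge (1.907 against 1.916 in WT replicate 1), and the ratio was not tested. Trap1, the mitochondrial Hsp90, stood at 51.5 ± 11.5 CPM in WT (SD, n = 5) and 52.4 ± 6.5 in KO (SD, n = 4), a log2 difference of 0.06 ± 0.14 that was not called.

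**Figure D2:**
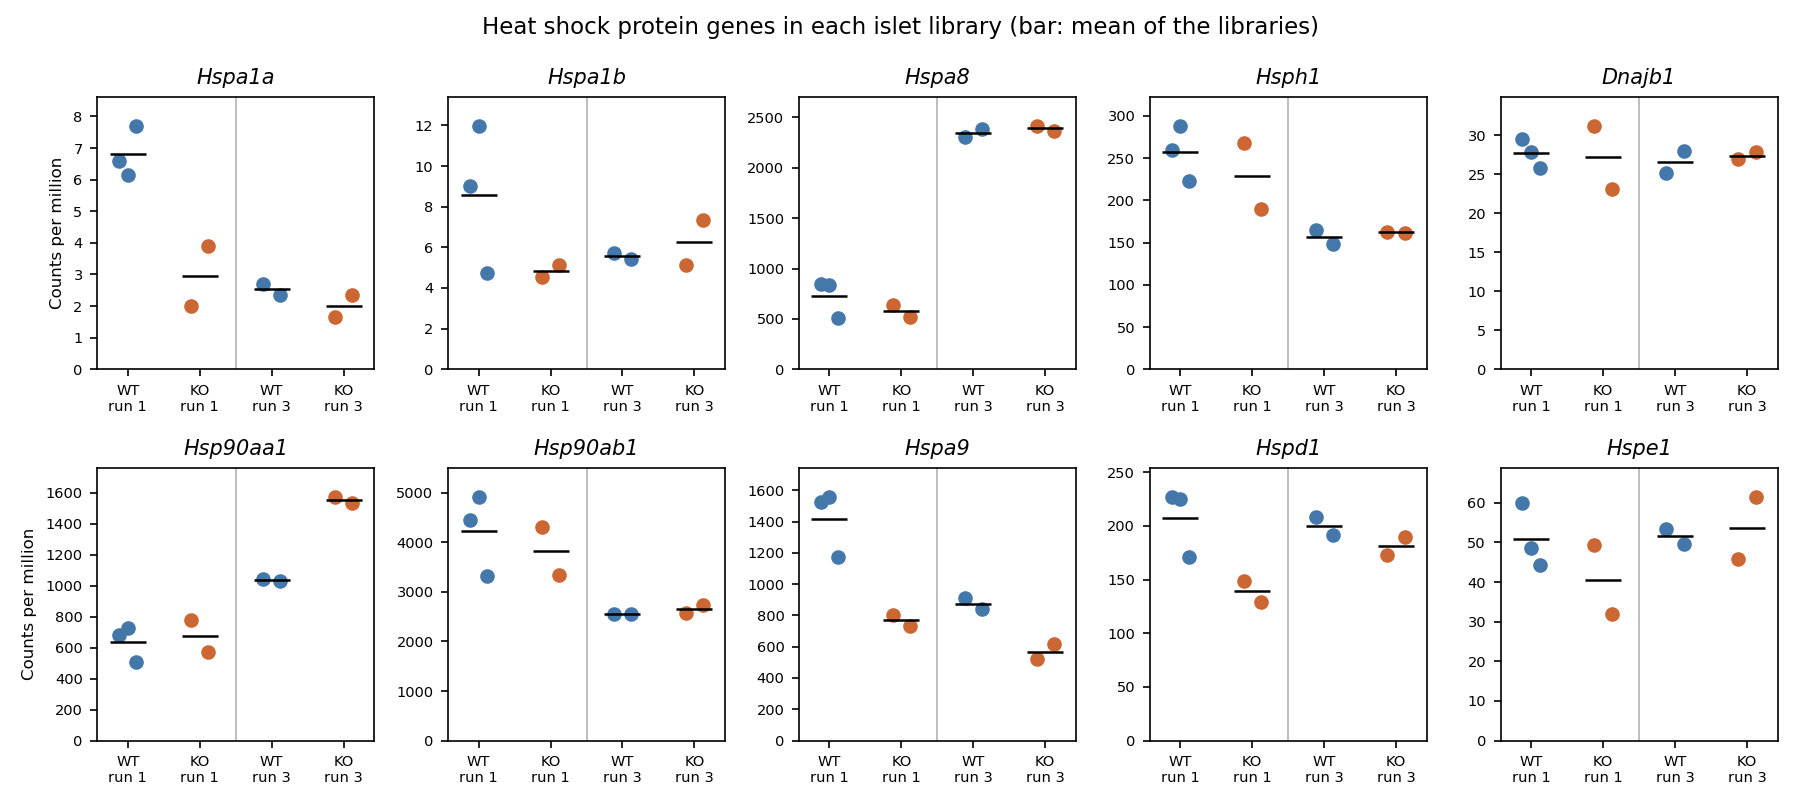
CPM of each of the 10 genes in every library, by run and genotype, with a bar at the mean of the libraries. Hspa9 shows KO points under all WT points in each run, Hspa8 and Hsp90aa1 are higher in run 3 than in run 1, and the Hspa1a and Hspa1b axes end at a few CPM.

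Hspa8 encodes Hsc70, the constitutive cytosolic Hsp70 that also strips clathrin from vesicles. It was at 847, 836 and 504 CPM across WT replicates 1 to 3 and 638 and 521 CPM in KO replicates 1 and 2. Run 3 gave 2311 and 2382 CPM in WT replicates 4 and 5 and 2418 and 2364 CPM in KO replicates 3 and 4. Genotypes overlapped in both runs, and the runs stood far apart. The KO difference was −0.16 ± 0.13 (95% interval −0.45 to 0.12, edgeR adjusted p = 0.432).

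Hsp90ab1 is the constitutive cytosolic Hsp90, which holds kinases and receptors in a form ready for activation. It was at 4450, 4919 and 3325 CPM across WT replicates 1 to 3 and 4310 and 3338 in KO replicates 1 and 2, then at 2565 and 2549 in WT replicates 4 and 5 and 2573 and 2727 in KO replicates 3 and 4. In run 3 the KO values lay a little above the WT values, and in run 1 they lay among them. The difference was −0.06 ± 0.11 (95% interval −0.30 to 0.18, edgeR adjusted p = 0.777). The direction was the opposite in run 3 alone, without WT replicate 2 or KO replicate 2, and with the acinar covariate described further on.

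Hsp90aa1 is the stress-inducible Hsp90. Run 1 gave 681, 727 and 504 CPM over WT replicates 1 to 3 and 778 and 573 CPM in KO replicates 1 and 2, and run 3 gave 1045 and 1032 CPM in WT replicates 4 and 5 and 1573 and 1532 CPM in KO replicates 3 and 4. The genotypes overlapped in run 1, while both KO libraries were above both WT libraries in run 3. The difference of 0.31 ± 0.13 (95% interval 0.05 to 0.58) did not pass the adjusted test (edgeR adjusted p = 0.0975). In the fit with an effect per run it was 0.08 in run 1 and 0.58 in run 3, called in neither (edgeR adjusted p = 0.781 and 0.0623). The difference between runs, 0.50 ± 0.22, was not called (edgeR adjusted p = 0.824). The gene was called higher without WT replicate 2 (0.38, edgeR adjusted p = 0.0429), without KO replicate 2 (0.46, edgeR adjusted p = 0.0132) and, when fitted on run 3 alone, at 0.57 (edgeR adjusted p = 0.000521).

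Hsph1 encodes Hsp110, the exchange factor that releases nucleotide from Hsp70. It was at 259, 288 and 223 CPM across WT replicates 1 to 3, 268 and 190 in KO replicates 1 and 2, 165 and 148 in WT replicates 4 and 5, and 162 and 161 in KO replicates 3 and 4. KO replicate 2 lay under the WT libraries of run 1 and the other 3 KO libraries lay within the WT range of their run. The difference was −0.07 ± 0.11 (95% interval −0.29 to 0.16, edgeR adjusted p = 0.707). Dnajb1 encodes Hsp40, the J-protein that hands clients to Hsp70. Its values were 29.6, 27.9 and 25.9 CPM over WT replicates 1 to 3, 31.2 and 23.1 in KO replicates 1 and 2, 25.1 and 28 in WT replicates 4 and 5, and 26.9 and 27.9 in KO replicates 3 and 4. Both extremes of Dnajb1 were KO libraries. The difference was 0.01 ± 0.12 (95% interval −0.25 to 0.26, edgeR adjusted p = 0.979), and its sign changed with the scaling (RLE size factors in place of TMM).

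Hspa1a and Hspa1b are the near-identical inducible Hsp70 genes and lie 9951 bases apart on chromosome 17. Both were read at low depth, Hspa1a with 8 to 31 counts per library. Hspa1a was at 6.59, 6.15 and 7.71 CPM across WT replicates 1 to 3, 2.02 and 3.89 in KO replicates 1 and 2, 2.71 and 2.37 in WT replicates 4 and 5, and 1.66 and 2.35 in KO replicates 3 and 4. KO lay under WT in both runs, in run 3 by a margin smaller than counting error at this depth, and the difference of −0.81 ± 0.34 was not called (95% interval −1.53 to −0.10, edgeR adjusted p = 0.110). Hspa1b was at 9.04, 12 and 4.72 CPM across WT replicates 1 to 3, 4.54 and 5.11 in KO replicates 1 and 2, 5.72 and 5.41 in WT replicates 4 and 5, and 5.15 and 7.34 in KO replicates 3 and 4. Its groups overlapped in both runs (−0.32 ± 0.31, edgeR adjusted p = 0.518). Of the 50-base words in the Hspa1a and Hspa1b transcripts, 66.3% and 62.3% also occur in another gene, mostly in each other, so the split of reads between them is uncertain. Their counts were therefore also summed, which gave −0.49 ± 0.24 (edgeR adjusted p = 0.181), with −0.97 in run 1 and 0.03 in run 3.

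Per length, in FPKM, the order of the genes in WT libraries of run 1 was Hsp90ab1 (1472 ± 278, SD, n = 3), Hspa9 (444 ± 67.2), Hspa8 (289 ± 74.1), Hsp90aa1 (183 ± 29.6), Hsph1 (69.1 ± 8.83), Hspd1 (66.0 ± 10.8), Hspe1 (49.8 ± 7.23), Dnajb1 (8.76 ± 0.553), Hspa1b (2.94 ± 1.25) and Hspa1a (2.32 ± 0.292). Hsph1 and Hspd1 differed by less than either SD, and Hspa1b and Hspa1a by less than the SD of Hspa1b but more than that of Hspa1a. In the 2 WT libraries of run 3 the order began with Hspa8 (1187 and 1236 FPKM), followed by Hsp90ab1 (1069 and 1074), Hsp90aa1 (396 and 400), Hspa9 (266 and 286), Hspd1 (92.0 and 97.6), Hspe1 (85.5 and 85.7) and Hsph1 (40.0 and 45.8).

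The heat shock genes also differed between the runs. With genotype in the model, 6 of 10 were called between runs, 2 higher and 4 lower in run 3, against 31.4% of all tested genes (15.1% higher, 16.3% lower). Hspa8 was 3.60-fold higher in run 3 (log2 difference 1.85 ± 0.13, edgeR adjusted p = 4.33e-08) and Hsp90aa1 was 1.91-fold higher (0.93 ± 0.13, edgeR adjusted p = 4.10e-05). Lower in run 3 were Hsp90ab1 (−0.64), Hsph1 (−0.62), Hspa9 (−0.58) and Hspa1a (−1.06). Dnajb1 (−0.03), Hspd1 (0.14), Hspe1 (0.19) and Hspa1b (−0.17) were not called. The share of a transcript's 50-base words that other annotated genes also hold was 74.8% for Hspa8, mostly in the pseudogene Gm15459, and 58.5% for Hsp90aa1, mostly in Gm12346. It was 44.8% for Hspd1 and for Hspe1 and at most 4.49% for Hsp90ab1, Hspa9, Dnajb1 and Hsph1. The treatment of reads with several matches was not stated in the sources used here, and the part of shared sequence in the run difference was not tested. Markers of other cells differed by run as well: 14 of 14 tested acinar markers were lower in run 3 (median −3.98), 7 of 10 endothelial markers were lower (−0.99), 8 of 9 fibroblast and stellate markers were higher (1.73) and 4 of 5 Schwann cell markers were higher (2.18). At least 1 count was seen for 14485 to 15136 genes in the libraries of run 1 and 20069 to 21067 in those of run 3. The part of these differences in the run values of the heat shock genes was not tested.

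**Figure D3:**
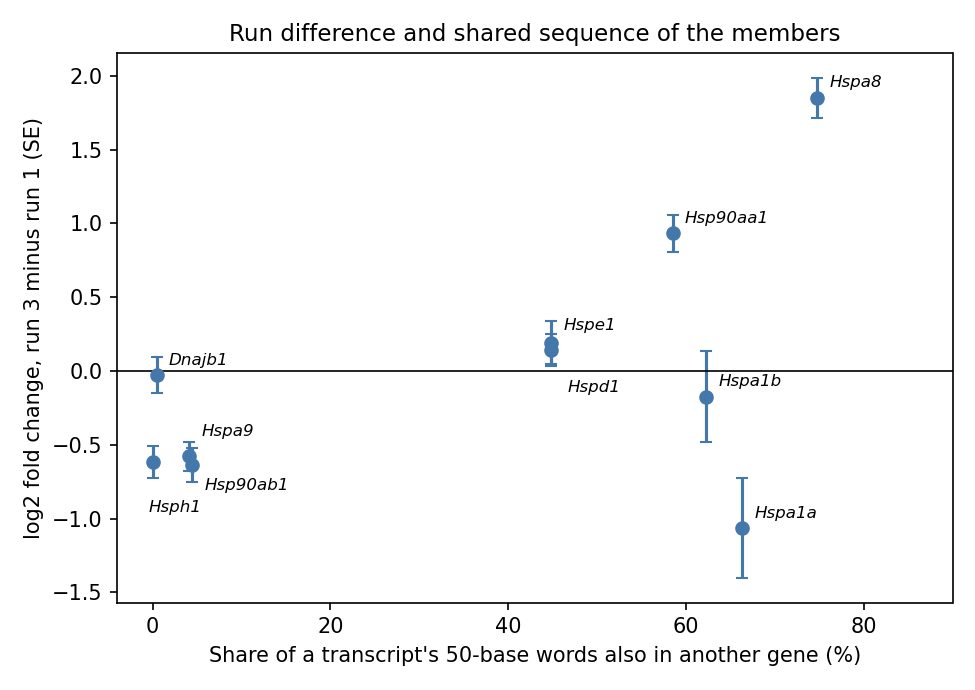
Log2 difference between run 3 and run 1, with its standard error, against the share of each transcript's 50-base words that occur in another annotated gene. Hspa8 (74.8%) and Hsp90aa1 (58.5%) are the genes called higher in run 3, while Hspa1a, at 66.3%, was lower.

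The ER chaperones are the contrast. Of 33 tested ER genes, 25 fell (Xbp1 among them), 0 rose and 8 were not called, with a median of −0.43. Over all tested genes, 8.96% fell. Hspa5, which encodes BiP, the ER Hsp70, fell by 0.62 (SE 0.13, edgeR adjusted p = 0.00422), Hsp90b1, the ER Hsp90 known as Grp94, fell by 0.48 (SE 0.10, edgeR adjusted p = 0.00481), Hyou1, the ER relative of Hsph1, fell by 0.48 (SE 0.11, edgeR adjusted p = 0.00527), and Dnajb11, an ER J-protein, fell by 0.43 (SE 0.10, edgeR adjusted p = 0.00854). The lowest p-values in the list belonged to Edem1 (−1.19), Dnajb9 (−0.93), Derl1 (−0.80) and Sel1l (−0.68), which act in ERAD or, for Dnajb9, as a BiP partner. In the fit with an effect per run, Hspa5 stood at −0.79 in run 1 and −0.42 in run 3. Hsp90b1 stood at −0.50 and −0.46, Hyou1 at −0.54 and −0.42, and Dnajb11 at −0.55 and −0.30. By that fit each was called in run 1 and none in run 3 (edgeR adjusted p = 0.233, 0.121, 0.158 and 0.267). Fits on a single run differed. Hsp90b1 lost its call in run 1 alone (edgeR adjusted p = 0.0548), and Hyou1 (0.0722) and Dnajb11 (0.143) lost theirs in run 3 alone. Hspa5 kept its call in both, and Hsp90b1 kept its call in run 3 alone. In run 3 Hyou1 overlapped (557 CPM in WT replicate 5, 565 in KO replicate 4) and Dnajb11 nearly did (121.0 and 120.8). The 4 relatives lost their calls in 2 or 3 of 17 settings, among them the model without the run term, and in none of the fits without 1 library. The list was drawn up with its fall in these libraries already known, so its count is not independent evidence of a direction.

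Heat shock genes were set against their ER relatives by the log2 ratio of their CPM in each library, with genotype labels permuted within runs (60 arrangements, so that no p can be under 0.0167). The ER genes were paired with their fall in these libraries already known, which favours a rise of the ratio for any gene that did not fall with them. The p-values of the ratios are therefore a description of these libraries and no independent evidence. The ratio of Hspa8 to Hspa5 was −1.92, −1.88 and −2.10 in WT replicates 1 to 3 and −1.28 and −1.70 in KO replicates 1 and 2. In run 3 it was 0.22 and 0.77 in WT replicates 4 and 5 and 1.04 and 0.80 in KO replicates 3 and 4. KO ratios were above all WT ratios in both runs, although WT replicate 5 came close to KO replicate 4.

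The Hsp90ab1 to Hsp90b1 ratio was 0.51, 0.59 and 0.41 in WT replicates 1 to 3 and 1.04 and 0.66 in KO replicates 1 and 2, then −0.06 and 0.40 in WT replicates 4 and 5 and 0.70 and 0.63 in KO replicates 3 and 4. That of Hsp90aa1 to Hsp90b1 was −2.2, −2.17 and −2.31 in WT replicates 1 to 3 and −1.43 and −1.88 in KO replicates 1 and 2, then −1.35 and −0.91 in WT replicates 4 and 5 and −0.01 and −0.20 in KO replicates 3 and 4. For both pairs the genotypes were apart in each run. The within-run differences were 0.45 for Hspa8 to Hspa5, 0.42 for Hsp90ab1 to Hsp90b1 and 0.78 for Hsp90aa1 to Hsp90b1, each with the smallest p the design allows (exact two-sided permutation test, p = 0.0167, adjusted over 6 pairs 0.0333). The 2 Hsp90 pairs share Hsp90b1 and are not independent of each other.

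Hsph1 to Hyou1 (0.40) and Dnajb1 to Dnajb11 (0.43) differed by about as much (exact permutation p = 0.0667, adjusted 0.0800 for each). Libraries overlapped in run 1 for Hsph1 to Hyou1 and in both runs for Dnajb1 to Dnajb11. Hspa9 to Hspa5 differed by −0.16 (exact permutation p = 0.2, adjusted 0.2): both genes of that pair had fallen. A ratio shows that 2 genes moved unequally, and it is the values of each gene given above that show which one did. With 1 library left out, 24 to 36 arrangements remained and 0 of 6 pairs passed after adjustment, while the 3 differences kept their direction. The smallest possible p was 0.0417 with 24 arrangements and 0.0333 with 30, so a pair could pass only if most of the 6 reached it. With 36, the groups were equal in both runs, each arrangement tied with its mirror, and no p under 0.05 could be reached. The count of 0 is therefore no measure of how firm the differences are.

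**Figure D4:**
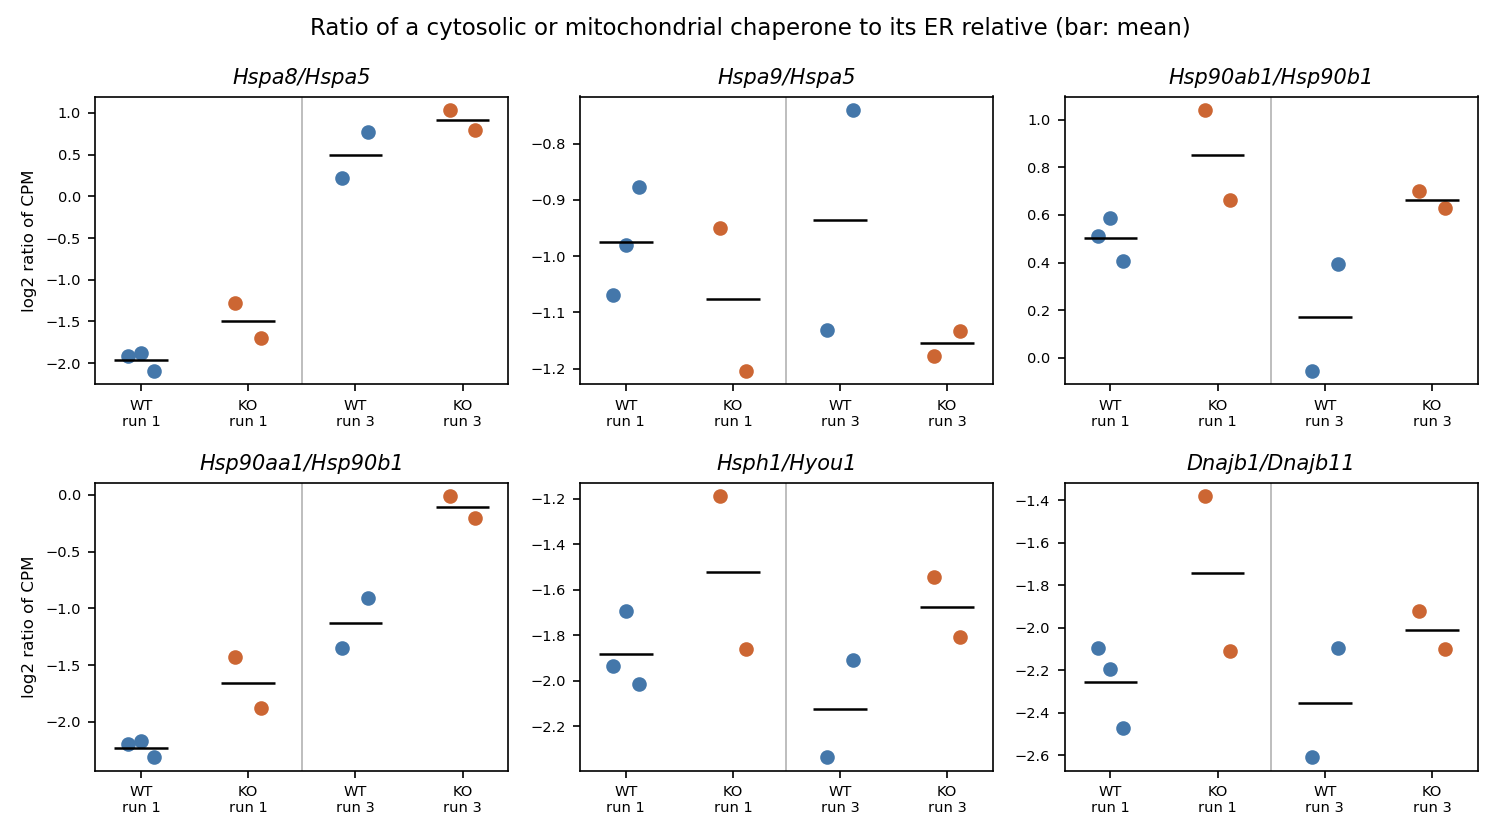
Log2 ratio of CPM of a cytosolic or mitochondrial chaperone to its ER relative in every library, by run and genotype, with a bar at the mean. KO points lie above WT points in both runs for Hspa8/Hspa5, Hsp90ab1/Hsp90b1 and Hsp90aa1/Hsp90b1, and overlap with WT for the other 3 pairs. The axes do not start at 0.

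Around the 10 genes, the heat shock transcription factors gave 0 calls among 4 tested, with Hsf1 at −0.11 ± 0.13 (edgeR adjusted p = 0.627) and Hsf2 at −0.11 ± 0.11 (edgeR adjusted p = 0.516). The small heat shock proteins, which hold unfolded proteins without using ATP, gave 0 calls among 5 tested, with 5 more under the filter on low counts. Hspb1 stood at 3.78 ± 1.85 CPM in WT (SD, n = 5) and 5.61 ± 0.927 in KO (SD, n = 4), a log2 difference of 0.62 ± 0.33, and Hspb8 at 9.97 ± 2.31 and 11.7 ± 3.88 CPM, a difference of 0.25 ± 0.24.

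Partners of the cytosolic Hsp70 moved in both directions. Among 29 tested Hsp70 relatives, J-proteins and cofactors (a list that also holds the microsomal Hspa13), 8 rose and 4 fell, with a median of 0.07. Over all tested genes, 9.56% rose and 8.96% fell. Hspa4l, an Hsp110 relative of Hsph1, rose from 78.9 ± 3.90 CPM in WT (SD, n = 5) to 121 ± 14.2 in KO (SD, n = 4), a log2 change of 0.62 ± 0.08 (edgeR adjusted p = 0.000141). Dnajc7, a J-protein that links Hsp70 and Hsp90, rose by 0.40 (SE 0.08, edgeR adjusted p = 0.00217), and Hspa12b, a distant Hsp70 relative, rose by 1.44 from 2.77 to 7.93 CPM. Bag4, an Hsp70 regulator, fell by 0.48. Other rises, named after their values were seen, were Hspbp1 (0.55), Dnaja1 (0.43), Stub1 (0.40), Bag1 (0.32) and Dnajc13 (0.25), and other falls were Hspa12a (−0.66), Hspa2 (−0.49) and Hspa13 (−0.28).

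The Hsp90 cochaperone list gave 2 rises and 2 falls among 18 tested, near the shares over all tested genes (9.56% higher and 8.96% lower). Ttc4 rose by 0.60 (edgeR adjusted p = 0.000949) and Chordc1 rose by 0.33, while Fkbp5 and Fkbp8, immunophilin-type partners, changed by −0.32 and −0.38. Chordc1 lost its call in 8 of 17 settings, Fkbp5 in 7 and Fkbp8 in 4. With 1 library left out, Chordc1 was not called without WT replicate 4 (edgeR adjusted p = 0.0994), WT replicate 5 (0.146), KO replicate 3 (0.134) or KO replicate 4 (0.0905), Fkbp5 without KO replicate 2 (0.0945), and Fkbp8 without WT replicate 4 (0.0598), KO replicate 3 (0.0705) or KO replicate 4 (0.0721). In the cytosolic chaperonin TRiC and its prefoldin partner, 14 genes tested gave 1 rise (the prefoldin subunit Pfdn2, 0.57) and 1 fall (the TRiC subunit Cct4, −0.39). Those counts are also near the shares over all tested genes. Cct4 lost its call in 7 of 17 settings and without WT replicate 1 (edgeR adjusted p = 0.0508), WT replicate 2 (0.0504) or KO replicate 2 (0.0941).

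The list of other mitochondrial chaperones and proteases gave 4 falls and 1 rise among 24 tested, with a median near 0. Of all tested genes, 8.96% were called lower and 9.56% higher. Atf5, a transcription factor of the mitochondrial stress response, fell from 162 ± 33 CPM (SD, n = 5) to 80.5 ± 19.1 (SD, n = 4), a log2 change of −0.96 ± 0.09 (edgeR adjusted p = 3.94e-06). Clpb, a disaggregase, fell by 0.71, Dnaja3, the J-protein partner of Hspa9, fell by 0.41, and Clpx, the unfoldase of a matrix protease (named after its value was seen), fell by 0.34. Dnajc11, a J-protein associated with the cristae-organizing complex, rose by 0.62.

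**Figure D5:**
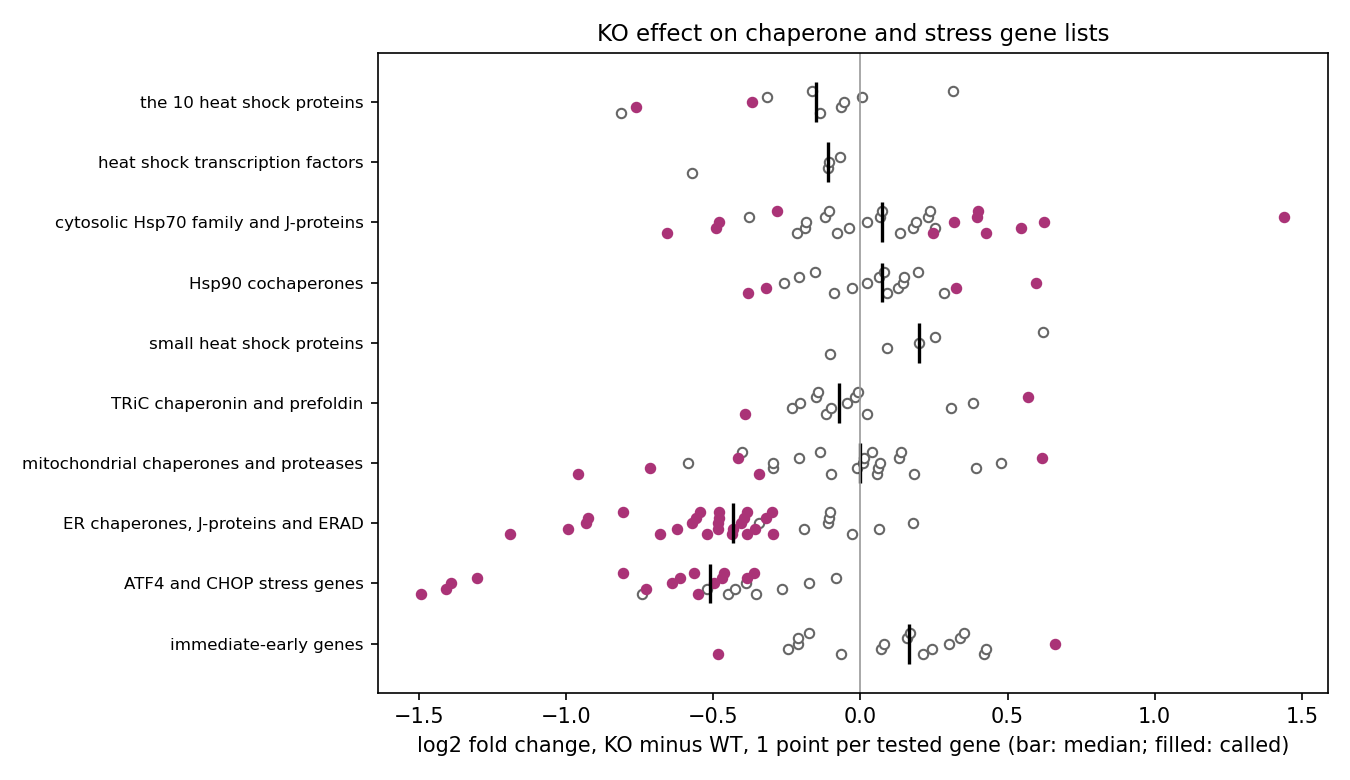
Log2 fold change of each tested gene in the 10 heat shock genes and in 9 chaperone and stress lists, filled where called, with a bar at each median. The ER list (median −0.43) and the ATF4 and CHOP list (median −0.51) lie mostly under 0, while the cytosolic lists spread to both sides.

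Of 24 tested genes of the ATF4 and CHOP arm of the stress response, which induces genes of amino acid supply, 15 fell and 0 rose, with a median of −0.51. Over all tested genes, 8.96% fell. Among the 15 were Atf4 (−0.73), Trib3 (−1.39), Aldh1l2 (−1.30) and Ddit3 (−1.49), which encodes CHOP. Herpud1 (−0.39), also among the 15, is counted in the ER list as well. Immediate-early genes, which respond to handling of tissue, gave 1 rise (Egr1, 0.66) and 1 fall (Klf6, −0.48) among 18 tested, against 9.56% and 8.96% of all tested genes. Egr1 lost its call in 10 of 17 settings and without KO replicate 1 (edgeR adjusted p = 0.133), KO replicate 2 (0.0882), KO replicate 4 (0.0675), WT replicate 2 (0.0603), WT replicate 3 (0.0542) or WT replicate 5 (0.0604), and Klf6 lost its call in 5 of 17 settings.

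Libraries differed in how much exocrine RNA they held. The summed level of 17 acinar marker genes was 2683 to 6827 CPM in the WT libraries and 486 to 2316 CPM in the KO libraries of run 1, and 137 to 167 and 96.4 to 269 CPM in those of run 3, with none of the 17 at 0 in all libraries. The acinar list had a median difference of −1.83 in run 1 and 0.19 in run 3. With the mean acinar level as a covariate, Hspa9 stood at −0.69 (edgeR adjusted p = 0.00166) and was alone among the 10 in being called lower, and Hsp90aa1 stood at 0.46 and was called higher (edgeR adjusted p = 0.0377). Of 10 beta cell markers 5 fell and 0 rose (median −0.43), of 6 delta and PP cell markers 2 rose (median 0.46), and of 9 tested fibroblast and stellate cell markers 2 rose (median 0.55). The summed fibroblast and stellate markers in run 3 were 575 to 793 CPM in WT and 898 to 976 CPM in KO. The alpha cell, macrophage and Schwann cell lists gave 1 rise each, and the duct and endothelial lists gave 0 calls. Of all tested genes, 9.56% rose and 8.96% fell. The part of cell composition in the heat shock values was not tested beyond these fits. Without WT replicate 2 and KO replicate 2, the libraries of run 1 with the highest and lowest mean acinar level, Hspa9 stood at −0.67 (edgeR adjusted p = 0.00103), Hspd1 at −0.25 (0.171) and Hsp90aa1 at 0.50 (0.00577).

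The effect of KO did not pass a test for a difference between runs in any of the 10 genes, nor in any of the 12501 genes (0% called by edgeR). At an unadjusted p under 0.05, 2 of the 10 (Hspd1 and Hsp90aa1) and 744 of all genes differed, and DESeq2 called 1 gene, not among the 10. The KO minus WT difference was more positive in run 3 than in run 1 for each of the 10, by 0.08 (Dnajb1) to 0.98 (Hspa1b). For Hspa9, Hspd1 and Hspa1a this was a smaller fall. Most of the 10 varied together with Hsph1, as described below, so they are not separate observations. The share of all genes with that sign was not counted, and their median difference was 0.023 in run 1 and 0.0018 in run 3. Without KO replicate 2 the sign of the run difference changed for Hsph1 (−0.02) and Dnajb1 (−0.13).

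Variation within run and genotype was described for Hsph1 alone. After removal of run and genotype means, the log2 CPM of Hsph1 over 9 libraries had a Pearson r of 0.91 with Hsp90aa1, 0.90 with Hsp90ab1, 0.80 with Hspd1, 0.77 with Hspa8, 0.74 with Dnajb1, 0.73 with Hspe1 and with Hspa9, 0.55 with Hspa1b and −0.31 with Hspa1a. The values of the mitochondrial genes thus lay among those of the cytosolic ones. Of 7525 other genes with a mean log2 CPM of at least 4, 8.54% had an r of at least 0.7 with Hsph1, and the nearest to Hsph1 were Hspa4 (0.98), Tiparp (0.97), Supt16 (0.97), Podxl2 (0.97) and Cars (0.96). Hspa4 encodes another Hsp110 protein and stood at 331 CPM in WT and 355 CPM in KO, a difference of 0.13 that was not called. These values are a description, with no test, over libraries whose depth and acinar RNA also varied.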

How the data were processed

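Raw read counts by gene symbol and FPKM values (fragment counts scaled by transcript length and library size) were deposited, each as a table with 1 column per library. The build mm10 and the tools Cuffdiff 2.2.1, edgeR, Bowtie2 2.2.4.0 and FastQC, without their roles, are listed per the submitters' processing notes. The counting tool, whether strand was used and how reads with several matches were treated are not given in the sources used here. That bears on Hspa1a, Hspa1b, Hspa8, Hsp90aa1, Hspd1 and Hspe1, which share sequence with other genes. RNA came from frozen islets with a stranded total RNA kit, per the labels' protocols.

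Symbols turned into dates (27) were left out. Counts were fitted with edgeR 4.0.16 in R 4.3.3 (TMM, default filter by genotype, terms for run and genotype, quasi-likelihood F test). All adjusted p-values are Benjamini-Hochberg, in the main fits over the 12501 tested genes. Alternative settings were adjusted over the genes each of them tested, and the ratios over 6 pairs. A gene was called at an adjusted p under 0.05. Standard errors came from the fold change and its F statistic. The model was also fitted to simulated counts with known changes, which held no library differences in cell content. No result from them is used here. Ratios used log2 CPM with a prior count of 2. FPKM served for the order of levels and, as log2(FPKM + 1) or log2(FPKM + 0.1) in limma 3.58.1, as alternatives, on which scale changes of low genes are understated. DESeq2 1.42.0, limma-voom, RLE factors, other filters, f/f controls only, single runs and each library left out were the others. The library pairs of a group differed by a chi-square of 3.73 to 64.2 per degree of freedom, so none agreed within sampling noise. Gene positions are from GENCODE M21, promoter windows from RefSeq (GRCm38.p6). Named genes were Ogt, the 10 genes, their ER relatives, Trap1, Hsf1, Hsf2, the 5 genes nearest to Hsph1 and, from each pathway list, up to 4 called genes of lowest p (or 2 where none was called). The genes and lists were chosen with earlier results of these data known. Removal of WT replicate 2 with KO replicate 2, and RLE factors for the ratios, were added after seeing the data.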

Additional observations from a re-analysis of the deposited data

How the results depend on the processing

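Hspa9 kept its fall in every setting run, Hspd1 lost its call in 8 of 17 settings and Hsp90aa1 gained one in 5. The number of genes called, 2315, was 672 without the run term, 1538 with f/f controls only, 1300 by limma on log2(FPKM + 1) with no filter, 1373 with the acinar covariate, 1488 without WT replicates 2 and 5 (the libraries of most Rn45s), 756 in run 1 alone, 1021 in run 3 alone, 1519 without WT replicate 2 and KO replicate 2, and 1595 to 2334 with 1 library left out. Heat shock genes called lower were 1 in place of 2 without the run term, with f/f controls only, in the 3 FPKM settings, with the acinar covariate, in run 3 alone and without WT replicate 2 and KO replicate 2, and 1 to 2 with 1 library left out. Heat shock genes called higher were 1 in place of 0 by limma-voom, with no filter, with the acinar covariate, in run 3 alone and without WT replicate 2 and KO replicate 2, and 0 to 1 with 1 library left out. ER genes called lower were 5 without the run term, 13 by FPKM with no filter, 13 in run 1 alone, and 20 to 25 with 1 library left out. DESeq2 called 1 gene for a KO effect that differed by run, and 0 to 6 were called with 1 library left out (6 without WT replicate 3). The run term called 2719 to 4243 genes with 1 library left out, 5 to 6 of them heat shock genes. The ratio test called 0 pairs with f/f controls only or without WT replicates 2 and 5, where 18 arrangements allow no p under 0.0556. It also called 0 with any 1 library left out, where the few arrangements made a call nearly impossible.

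Signs reversed only for genes that were not called. Without the run term Hspa8 stood at 0.11, and in run 3 alone at 0.020, beside Hspa1b at 0.16, Hsph1 at 0.043, Hsp90ab1 at 0.045 and Hspe1 at 0.053. With the acinar covariate Hsph1 stood at 0.054, Hsp90ab1 at 0.043 and Hspe1 at 0.0092, and without WT replicate 2 and KO replicate 2 at 0.087, 0.088 and 0.0060. Dnajb1 stood at −0.0022 by DESeq2, −0.0023 with RLE factors, −0.014 with no filter, −0.0040, −0.0052 and −0.0040 in the FPKM settings, −0.0094 without Rn45s and −0.046 in run 1 alone, where Trap1 stood at −0.078. With 1 library, or WT replicate 2 and KO replicate 2 together, left out, log2 fold changes ranged from −0.078 to 0.092 for Dnajb1, −0.12 to 0.088 for Hsp90ab1, −0.15 to 0.087 for Hsph1, −0.27 to 0.015 for Hspe1 and −0.024 to 0.18 for Trap1. With 1 library left out, run differences ranged from −0.12 to 0.030 for Dnajb1 and −0.37 to 0.022 for Hspa1b, and differences of the KO effect from −0.13 to 0.30 for Dnajb1 and −0.016 to 0.48 for Hsph1. The cause of these changes was not tested. No paired analysis was possible because the labels give no replicate numbers: those used here only name the libraries of a group in the order in which the samples are listed. The 8 to 31 counts of Hspa1a limit what its libraries can show.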
